A study of Homo sapiens with 12 samples.

Results

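The genes described here are the nuclear genes for subunits of the 5 enzyme complexes of oxidative phosphorylation, in 12 RNA-seq libraries of 2 human leukaemia cell lines. They were found by symbol. Of 59611 rows in the raw count table, 271 carry a symbol that starts like those of the subunits of complex I (NDUFA, NDUFB, NDUFC, NDUFS and NDUFV), complex II (SDHA to SDHD), complex III (UQCR), complex IV (COX4I to COX8) or complex V (ATP5F1, ATP5M and ATP5P). Of these, 161 were pseudogenes, 18 were assembly factors and 5 were antisense, divergent or readthrough transcripts, and all of these were left out. That left 87 subunit genes, of which 76 had a mean of at least 5 CPM over the 12 libraries and are the members. CPM are the counts of a gene relative to the total of its library. The total was not scaled for this rule and the means set against its limit, and was scaled for other values unless stated. The members are 35 of complex I, 4 of complex II, 8 of complex III, 12 of complex IV (NDUFA4 among them) and 17 of complex V. Just inside the limit were NDUFA13 at a mean of 13 CPM and NDUFB8 at 13.8 CPM, and just outside were NDUFV2 at 4.61 CPM and NDUFA4L2 at 4.42 CPM. All 76 members passed the filter on low counts and were tested.

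Complexes I to IV form the respiratory chain of the inner mitochondrial membrane: complexes I and II pass electrons from NADH and succinate to ubiquinone, complex III passes them to cytochrome c, and complex IV passes them to oxygen. Complexes I, III and IV pump protons, and complex V, the ATP synthase, lets the protons flow back to make ATP. Most subunits are encoded in the nucleus and imported, while a core set is encoded in mitochondrial DNA; the mitochondrially encoded subunits were not analysed here.

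Poly-A-selected, stranded RNA-seq was made from 697 and KOPN-8, which are B-lineage acute lymphoblastic leukaemia lines grown in RPMI1640 with serum and not used past passage 20. Each line has a control that carried an empty sgRNA vector (labelled SETD2 WT) and 1 clone that received an sgRNA against SETD2, the histone methyltransferase that places H3K36me3 (labelled SETD2 heterozygous KO). The clone is BM_B in 697 and BA in KOPN-8, and each of the 4 groups has 3 libraries labelled as biological replicates. The comparisons ask how RNA levels differ between each labelled clone and its control. With 1 clone per line, the edit and other differences of that clone cannot be told apart, whether the control of a line is also a clone is not stated, and the p-values rest on the spread among cultures or libraries of a group.

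SETD2 itself was at 156, 158 and 169 CPM in control 697, 207, 211 and 238 CPM in the labelled 697 clone, 159, 171 and 177 CPM in control KOPN-8 and 161, 151 and 162 CPM in the labelled KOPN-8 clone. Its RNA was thus higher in the labelled 697 clone (log2 fold change 0.44, SE 0.0692, edgeR adjusted p = 0.000103) and not separable from control in the labelled KOPN-8 clone (-0.10, adjusted p = 0.309), so SETD2 RNA goes against a lower level in the labelled 697 clone and does not check the label of the other, and both are called labelled clones for that reason. Library totals ran from 10378769 to 18278662 counts. The 11 B-lineage marker genes summed to between 4330 and 5710 CPM in every library, while markers of T cells, myeloid, erythroid and stromal cells summed to at most 0.78, 5.71, 0.0654 and 3.61 CPM. The B-lineage sum was 4710 to 4980 CPM in control 697 and 5430 to 5710 CPM in its clone, and the myeloid sum 1.85 to 3.09 CPM in control KOPN-8 and 4.4 to 5.71 CPM in its clone; their part in the results was not tested. HOXA9 had 0 counts in all 697 libraries and 111 to 152 CPM in KOPN-8.

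One library stood apart in the members before any comparison. In replicate 3 of the labelled 697 clone, the library with the fewest counts, 68 of the 76 members lay below their group mean, with a median log2 deviation of -0.152 on log2(CPM + 0.5). The genes of the mitochondrial ribosome (median -0.108) and of the cytosolic ribosome (-0.177) lay low in the same library, while the median of all genes tested was -0.00216. Transcript length moved with this: genes under 1000 bases had a median of -0.0662 there and genes of 3000 bases or more 0.0172, and 61.8% of the members are under 1000 bases against 9.71% of all genes at 5 CPM or more. Replicate 3 of the labelled KOPN-8 clone lay lower too, with 67 of 76 members below their group mean and a median of -0.0647. Values without these libraries are given below for the called members named in each clone; counts over the related gene lists were not recomputed without them.

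**Figure D1:**
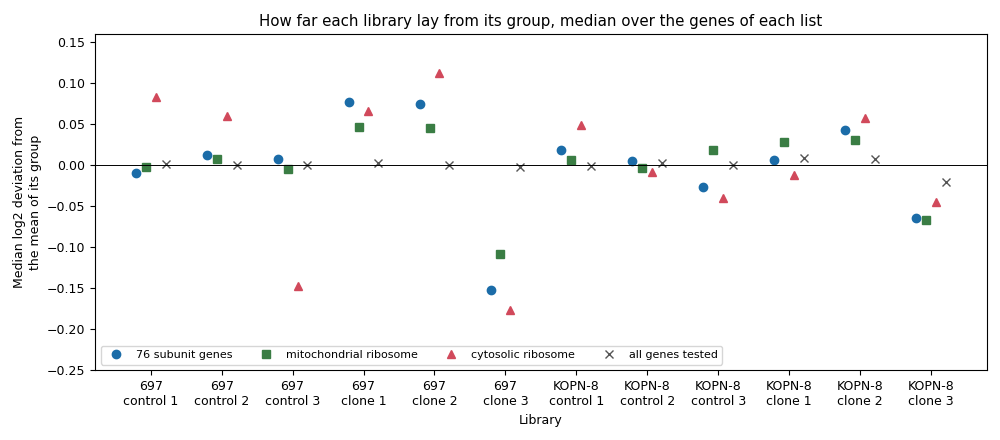
Median log2 deviation of each library from the mean of its own group (vertical axis, log2 CPM) for the 76 subunit genes, the mitochondrial ribosome, the cytosolic ribosome and all genes tested, over the 12 libraries (horizontal axis). Replicate 3 of the labelled 697 clone is lowest for the subunit genes, at -0.152.

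The 76 members together held 9519, 9778 and 9695 CPM in the 3 libraries of control 697, and 9966, 9946 and 8609 CPM in the labelled 697 clone. Control KOPN-8 held 7883, 7760 and 7675 CPM, and the labelled KOPN-8 clone 7494, 7645 and 7059 CPM. The 697 groups overlap, each library of the labelled KOPN-8 clone lies under its controls, and both groups of KOPN-8 lie under every library of 697. Complex V made up the largest sum of the 5 complexes, with a mean of 3935 CPM and an SD of 12.2 over 3 libraries in control 697, and of 2986 CPM with an SD of 12.3 in control KOPN-8. Complex II made up the smallest, with means of 202.6 CPM (SD 1.1) and 235.6 CPM (SD 3.59). Of the 5 sums, that of complex II alone was higher in each control KOPN-8 library than in each control 697 library; with library totals not scaled by TMM it remained higher, at 240.8 against 197.2, and complex I came level, at 2069 against 2101. These are relative levels in bulk cultures, where fewer expressing cells and less RNA per cell cannot be told apart.

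**Figure D2:**
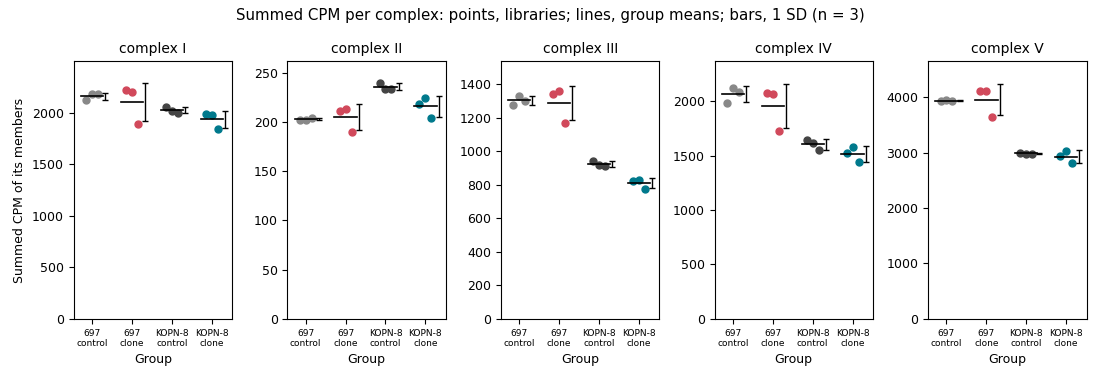
Summed CPM of the members of each complex (vertical axis, CPM) in the 4 groups, with 1 point per library, a line at the group mean and a bar of 1 SD (n = 3). Complexes III, IV and V sit lower in KOPN-8 than in 697, complex II sits higher in control KOPN-8 than in control 697, and the third library of the labelled 697 clone is the lowest of its group in all 5 panels.

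Per kilobase of transcript, levels spanned a wide range inside each complex. On that scale (mean CPM per kilobase over 12 libraries) the highest members were NDUFS5 in complex I at 219, SDHB in complex II at 51.6, UQCRH in complex III at 287, COX6B1 in complex IV at 448 and ATP5MC2 in complex V at 513. The lowest were NDUFA9 at 2.36, SDHC at 4.71, UQCRFS1, the Rieske iron-sulfur protein, at 18.0, NDUFA4 at 61.4 and ATP5F1D at 49.2. The lengths are of 1 annotated transcript per gene, 8363 bases for NDUFA9 and 13566 bases for SDHC, and a shorter transcript in these cells would raise those 2 values.

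Of most paralogous pairs, 1 form made up nearly all the RNA in both lines. COX4I2, COX6A2, COX7A1 and COX7B2 had no count in any library, which allows up to 0.159 to 0.292 CPM, while their partners COX4I1, COX6A1, COX7A2 and COX7B were all members. COX8C reached at most 0.61 CPM beside COX8A, and COX6B2 0.0742 CPM in 1 library beside COX6B1. NDUFA4L2, the paralog of the complex IV subunit NDUFA4, ran from 1.41 to 2.24 CPM in 697 and from 6.03 to 7.65 CPM in KOPN-8, so that the lines did not overlap. The other subunit genes under the limit were UQCRHL at a mean of 1.23 CPM, NDUFA7 at 0.96 CPM and ATP5MGL at 0.036 CPM, beside NDUFV2, a core subunit of complex I. Of the exon bases of NDUFV2 28.4%, and of those of NDUFA7 32.3%, are shared with another gene on the same strand in GENCODE v29, and how reads in such bases were counted is not stated. The 3 genes for the same mature c subunit of the ATP synthase ring were all expressed, at 177 (ATP5MC1), 513 (ATP5MC2) and 272 (ATP5MC3) CPM per kilobase.

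The promoters of NDUFA8 and NDUFA6 are shown because these were the 2 members called in both labelled clones, each in opposite directions in the 2 lines. The windows are the 250 bases before the RefSeq start on GRCh38.p14, carried on by 6 bases for NDUFA8 to the end of a match, and are written 5′ to 3′ on the minus strand at chr9:122159774-122160029 (NDUFA8) and chr22:42090773-42091022 (NDUFA6). Capitals mark GCATGCGC, a core of the site of NRF1, a regulator of respiratory genes; the letters were searched on both strands, together with CCGGAAGT (the ETS site, bound by GABPA) and AAGATGGCG (YY1).

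NDUFA8: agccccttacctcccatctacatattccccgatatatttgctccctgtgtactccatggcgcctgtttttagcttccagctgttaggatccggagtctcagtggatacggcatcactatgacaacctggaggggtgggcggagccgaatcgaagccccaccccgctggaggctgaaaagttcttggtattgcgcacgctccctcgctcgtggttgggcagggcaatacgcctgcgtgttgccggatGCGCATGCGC

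NDUFA6: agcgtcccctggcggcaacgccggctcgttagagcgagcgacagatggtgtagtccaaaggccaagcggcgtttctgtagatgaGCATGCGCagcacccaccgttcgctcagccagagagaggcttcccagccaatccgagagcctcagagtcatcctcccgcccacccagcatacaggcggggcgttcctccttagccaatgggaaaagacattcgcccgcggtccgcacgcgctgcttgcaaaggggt

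In NDUFA8 the NRF1 letters occur in 2 overlapping copies, on either strand, that begin 4 and 2 bases before the start and run across it. In NDUFA6 they begin 166 bases before the start, and a YY1 match begins 26 bases after the start, outside the printed window. Over all 300-base RefSeq promoter windows (250 before to 50 after the start), GCATGCGC was found in 3.05% of 35116, CCGGAAGT in 4.14% and AAGATGGCG in 1.75%; for windows of the genes tested the shares were 4.77%, 7.47% and 3.46%. Of the 76 members 64 had a window, 3 of them under a newer symbol, and among those 64 genes the letters were found in 14, 12 and 8. Counted by window, as the shares above are, they were found in 15, 12 and 9 of 77 (19.5%, 15.6% and 11.7%). Matches of 2 of these motifs did not overlap in any member window. A match is a string of letters and not a site shown to be bound. The RNA of the factors themselves had log2 fold changes in the 697 and KOPN-8 clones of 0.06 and 0.15 for NRF1, 0.11 and 0.04 for GABPA, and 0.08 and -0.04 for YY1, none of them called.

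In the labelled 697 clone, 5 of the 76 members were called at an adjusted p under 0.05 (edgeR quasi-likelihood test, Benjamini-Hochberg over 15218 genes), which is 6.58% of the members against 9.45% of all genes tested. Higher were 2 members, against 4.85% of all genes, and lower were 3, against 4.6%. The median log2 fold change of the members was -0.05, with all genes at 0.00, and the 95% interval lay within 1.5-fold for 74 of the 76, NDUFA8 and NDUFB2 being the exceptions. The median SE of a member's log2 fold change was 0.0844. The 3 libraries of the clone and of its control did not overlap for 17 of the 76 members, against 24.1% of all genes tested.

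NDUFA8, an accessory subunit of complex I with the twin CX9C fold of proteins of the intermembrane space, was the member with the largest change. It stood at 27.2, 26.4 and 25.2 CPM in control 697 and at 49.8, 48.9 and 40.7 CPM in the labelled clone. Every clone library was above every control library. The rise was 1.77-fold (log2 0.82, SE 0.0890, edgeR adjusted p = 4.44e-07), and without replicate 3 of the clone it was 0.91 on the log2 scale (adjusted p = 8.82e-08).

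NDUFB2, an accessory subunit of the membrane arm of complex I, fell from 43.4, 45.3 and 45.0 CPM in control 697 to 37.1, 33.1 and 25.2 CPM in the clone. The groups did not overlap, and the third clone library was the lowest. The log2 fold change was -0.48 (SE 0.0981, edgeR adjusted p = 0.00202), and -0.34 without that library (adjusted p = 0.0125). NDUFA6, a LYR-motif accessory subunit of complex I that binds the acyl carrier protein NDUFAB1, went from 59.7, 67.5 and 71.2 CPM to 56.8, 56.1 and 51.7 CPM. Its groups did not overlap either, but by a narrow margin, and its call was weaker: the log2 fold change was -0.27 (SE 0.0819, edgeR adjusted p = 0.0398) and -0.23 without replicate 3 of the clone, with an adjusted p of 0.149. The call on NDUFA6 was also lost without control 697 replicate 2 or 3, clone replicate 1 or 2, KOPN-8 control replicate 1 or 3, or labelled KOPN-8 clone replicate 1, with adjusted p-values of 0.0508 to 0.163.

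Outside complex I, ATP5PO, the oligomycin-sensitivity-conferring subunit at the top of the peripheral stalk of the ATP synthase, rose from 71.3, 69.4 and 69.5 CPM to 78.0, 90.4 and 92.3 CPM. All 3 clone libraries lay above the control, and the third, low for most members, was the highest of them. The log2 fold change was 0.31 (SE 0.0744, edgeR adjusted p = 0.00765), and 0.27 without replicate 3 (adjusted p = 0.0439). UQCR11, a small subunit of complex III, fell from 23.8, 23.5 and 23.3 CPM to 15.6, 19.7 and 20.4 CPM, with no overlap. Its log2 fold change was -0.35 (SE 0.107, edgeR adjusted p = 0.0401), and -0.41 without replicate 3 of the clone (adjusted p = 0.0287); the call was lost without any 1 of the control 697 libraries, any 1 of the KOPN-8 control libraries, clone replicate 1 or labelled KOPN-8 clone replicate 2, at adjusted p-values of 0.0503 to 0.228. Log2 fold changes ran from -0.05 to 0.16 in complex II and from -0.20 to 0.11 in complex IV. No member of these complexes was called by edgeR, DESeq2 or limma in this line; in these 16 genes the count at an unadjusted p under 0.05 was 0 in edgeR and DESeq2 and 1 in limma.

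Same-numbered libraries of control and clone deviated together in 697, so the comparison was also fitted with the replicate number as a block. The block gave 9 called members, 3 higher and 6 lower, with 2319 genes called in all. All 5 members above were among the 9, and the others included NDUFS7 (log2 fold change -0.26, edgeR adjusted p = 0.0414), ATP5F1D (-0.25, 0.0423) and NDUFV3 (-0.23, 0.0459). Without replicate 3 of the clone, 4 members were called, and 5 with the block as well, and the median log2 fold change of the members moved from -0.05 to 0.03. The count without the block was 3 when any 1 of control 697 replicates 2 or 3, clone replicate 1, or KOPN-8 control replicates 1 or 3 was left out.

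**Figure D3:**
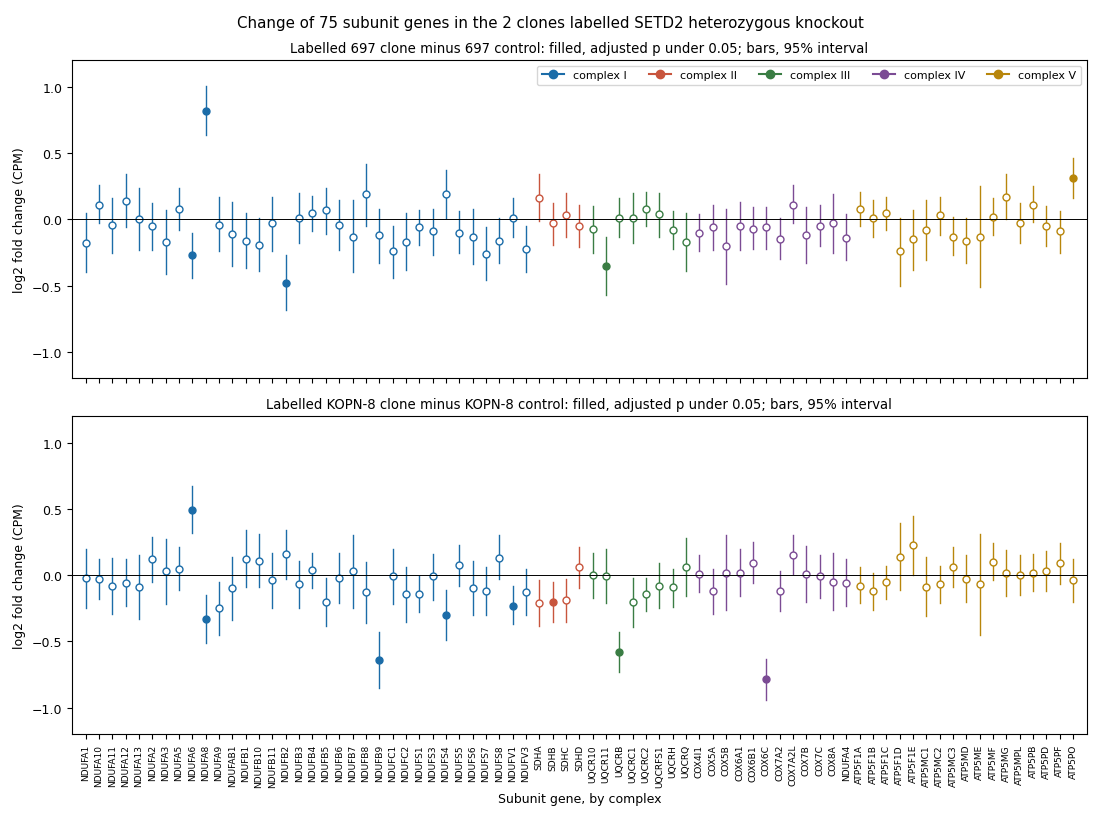
Log2 fold change with its 95% interval (vertical axis) of 75 members, ordered by complex (horizontal axis), in the labelled 697 clone (upper panel) and the labelled KOPN-8 clone (lower panel); filled points had an adjusted p under 0.05. Most points lie near 0 in both panels, with NDUFA8 highest in 697 at 0.82 and COX6C lowest in KOPN-8 at -0.78.

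In the labelled KOPN-8 clone, 9 of the 76 members were called, which is 11.8% against 28.7% of all genes tested. NDUFA6 was the only member called higher, where 11.5% of all genes were, and 8 members were called lower, where 17.2% of all genes were. The median log2 fold change of the members was -0.04, with all genes at 0.00, and without replicate 3 of the clone it was -0.004. The 95% interval lay within 1.5-fold for 72 of the 76, the exceptions being COX6C, UQCRB, NDUFB9 and NDUFA6. The groups did not overlap for 25 of the 76 members, against 45.1% of all genes. Outside chromosome 8, 6 of 73 members were called (8.22%), against 27.5% of the genes there; in the labelled 697 clone the 5 calls were all among these 73, against 9.49% of those genes.

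The 3 members on chromosome 8 all fell in the labelled KOPN-8 clone, and they were the 3 with the largest falls. COX6C, a small nuclear subunit of complex IV, stood at 199, 201 and 194 CPM in control KOPN-8 and at 118, 114 and 112 CPM in the clone. The 2 sets of libraries lay far apart, with a log2 fold change of -0.78 (SE 0.0758, edgeR adjusted p = 1.53e-08). NDUFB9, a LYR-motif accessory subunit in the membrane arm of complex I, stood at 82.1, 79.3 and 80.1 CPM and at 53.0, 52.6 and 49.6 CPM, and changed by -0.64 on the log2 scale (SE 0.101, adjusted p = 4.05e-05). UQCRB, a small complex III subunit also known as ubiquinone-binding protein, stood at 203, 194 and 184 CPM and at 120, 135 and 135 CPM, and changed by -0.58 (SE 0.0724, adjusted p = 9.44e-07). In the labelled 697 clone the same genes were at -0.06, -0.12 and 0.01, none of them called. Without replicate 3 of the labelled KOPN-8 clone, COX6C was at -0.77 (adjusted p = 4.68e-07), UQCRB at -0.61 (5.2e-06) and NDUFB9 at -0.61 (0.000585).

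Of all 512 genes tested on chromosome 8, 326 were called in the labelled KOPN-8 clone (63.7%). In GENCODE v29 (GRCh38), UQCRB starts at base 96225920, COX6C at 99873200 and NDUFB9 at 124539101, all before ASAP1 at 130052104, a boundary taken from earlier results on these data, so that the values on its 2 sides are a description and support nothing. Of the 415 genes tested on chromosome 8 up to ASAP1, 300 were called in the labelled KOPN-8 clone (72.3%), with a median log2 fold change of -0.58. Past ASAP1, 26 of 97 were called (26.8%), with a median of 0.05. Related genes on the near side also fell there: NDUFAF6, a complex I assembly factor, by 1.01 on the log2 scale (edgeR adjusted p = 1.85e-08), TMEM70, an ATP synthase assembly factor, by 0.51 (adjusted p = 4.96e-05) and VDAC3, an outer-membrane channel, by 0.58 (adjusted p = 2.4e-07). CYC1, the cytochrome c1 gene of complex III, starts at base 144095027, past ASAP1, and did not pass the test (log2 fold change -0.11, adjusted p = 0.389). DNA copy number was not analysed here, and its part in these values was not tested.

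Away from chromosome 8, NDUFA6 and NDUFA8 moved in the direction opposite to the one seen in the labelled 697 clone. NDUFA6 rose from 33.2, 37.2 and 34.6 CPM in control KOPN-8 to 49.9, 52.6 and 45.8 CPM in the clone, with every clone library above every control library. The rise was 1.41-fold (log2 0.49, SE 0.0836, edgeR adjusted p = 5.79e-05). NDUFA8 fell from 35.1, 35.4 and 35.6 CPM to 29.7, 28.5 and 26.4 CPM, again without overlap, with a log2 fold change of -0.33 (SE 0.0878, edgeR adjusted p = 0.00625). Without replicate 3 of the clone these values were 0.55 (adjusted p = 6.47e-05) and -0.28 (adjusted p = 0.0391).

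The remaining calls were of subunits of complexes I and II, all lower. NDUFV1, the core subunit that binds NADH and FMN, went from 170, 157 and 157 CPM to 140, 135 and 138 CPM (log2 -0.23, SE 0.0704, edgeR adjusted p = 0.0167). Its groups did not overlap. NDUFS4, an accessory subunit known from inherited complex I deficiency, went from 32.6, 32.7 and 29.1 CPM to 24.8, 24.2 and 27.5 CPM (log2 -0.30, SE 0.0899, adjusted p = 0.0134). SDHB, the iron-sulfur subunit of complex II, went from 65.7, 63.7 and 65.2 CPM to 57.9, 56.5 and 55.1 CPM (log2 -0.20, SE 0.0739, adjusted p = 0.046). The groups of these 2 did not overlap either. Without replicate 3 of the clone, NDUFV1 was at -0.23 (adjusted p = 0.0392), NDUFS4 at -0.36 (0.01) and SDHB at -0.18 (0.126).

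These smaller changes hung on single libraries more than the earlier ones did. The call on SDHB was lost when any 1 KOPN-8 library was left out (adjusted p-values of 0.0755 to 0.126), and also without control 697 replicate 3 or labelled 697 clone replicate 1 or 2 (0.0547 to 0.0737), and by DESeq2 (0.0507). The call on NDUFS4 was lost without KOPN-8 control replicate 1 or 2 or clone replicate 1 or 2 (0.0572 to 0.0659). The call on NDUFV1 was lost without control replicate 1 (0.0955) or clone replicate 2 (0.0616). Leaving out control KOPN-8 replicate 1 gave 6 called members, and leaving out clone replicate 3 gave 8.

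All 17 ATP synthase members stayed within 0.23 of 0 on the log2 scale in the labelled KOPN-8 clone. The lowest was ATP5F1B, the catalytic beta subunit, at -0.12, with 764, 719 and 746 CPM in the control and 684, 715 and 650 CPM in the clone, and the highest was ATP5F1E, of the central stalk, at 0.23. None was called in the edgeR fit used for the calls above, by DESeq2 or by limma. The count at an unadjusted p under 0.05 was 1 in edgeR, 1 in DESeq2 and 0 in limma. With the replicate block, edgeR called ATP5F1E higher (log2 0.23, adjusted p = 0.0438). It was 1 of 9 members called in this clone with the block and not without it. SDHC (-0.19, adjusted p = 0.0245) and SDHA (-0.21, adjusted p = 0.0249) of complex II were among these 9, both lower. Of all 18 members called with the block, 15 were lower and 3 higher. All genes called numbered 5348 with the block and 4370 without it. Complex III as a sum went from 942.3, 916.5 and 913.6 CPM to 825.5, 831.3 and 774.8 CPM, and without UQCRB from 738.9, 722.2 and 729.9 CPM to 706.0, 696.6 and 639.4 CPM. Complex IV without COX6C stood at 1447, 1413 and 1354 CPM in the control and at 1406, 1467 and 1325 CPM in the clone, so that the rest of that complex overlapped between the groups.

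**Figure D4:**
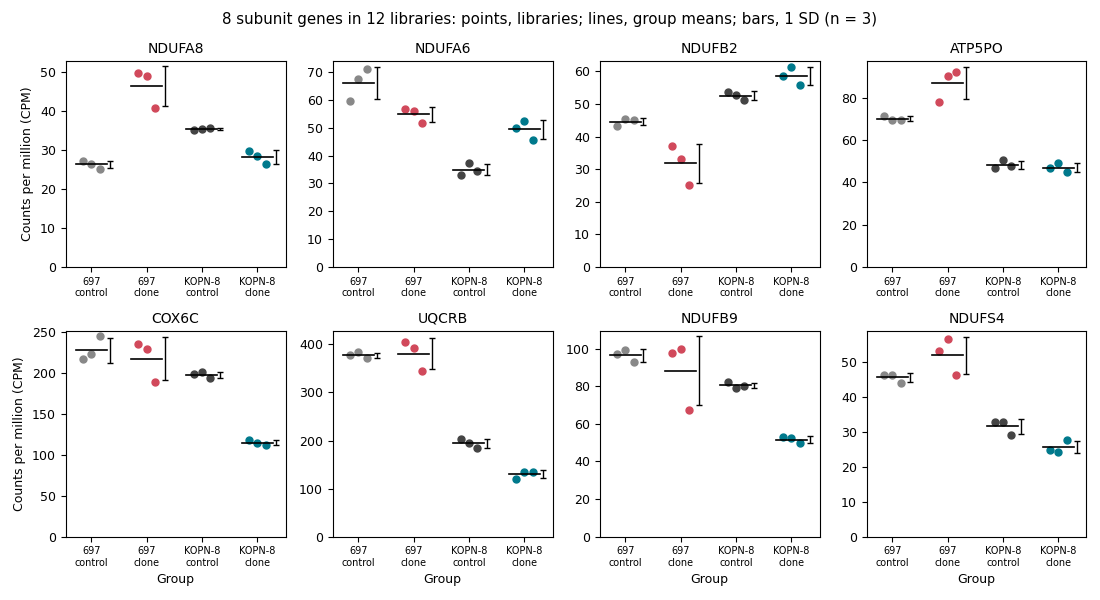
CPM (vertical axis, starting at 0) of 8 members in the 4 groups (horizontal axis), with 1 point per library, a line at the group mean and a bar of 1 SD (n = 3). Against the control of the same line, NDUFA8 is higher in the labelled 697 clone and lower in the labelled KOPN-8 clone, and NDUFA6 the reverse. COX6C, UQCRB and NDUFB9 are below their control in the labelled KOPN-8 clone.

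Whether the clones differed from each other was tested as the KOPN-8 change minus the 697 change. This difference was called for 10 of the 76 members (13.2%), against 19.5% of all genes tested; 2 were more positive in KOPN-8, against 7.46% of all genes, and 8 more negative, against 12.1%. Off chromosome 8 the count was 7 of 73 (9.59%), against 18.4% of genes. The difference shares its control libraries with both comparisons above and is no separate evidence for them. It was largest for NDUFA8 (-1.15, SE 0.125, edgeR adjusted p = 2.15e-07) and NDUFA6 (0.76, SE 0.117, adjusted p = 3.05e-05), the 2 members called in both clones. It was also called for COX6C (-0.72, adjusted p = 1.72e-05), UQCRB (-0.59, 0.000119) and NDUFB2 (0.63, 0.00124). The difference for these 5 members remained called without replicate 3 of either labelled clone. With the replicate block, which the pairing check backed more clearly in 697 than in KOPN-8, the count was 17. The count over all genes with the block is not given here.

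Genes that build or feed these complexes were read from lists of textbook members. In the labelled 697 clone, 1 of 19 complex I assembly factors was called lower (NDUFAF8, log2 fold change -0.46, edgeR adjusted p = 0.0485). That was the only call among 61 assembly factors of the 5 complexes tested there (1.64%, against 9.45% of all genes). In the labelled KOPN-8 clone, 12 of the 61 were lower (19.7%, near the 17.2% of all genes that were lower) and 2 higher (3.28%, against 11.5%). By complex, 3 of 19 were lower for complex I, 1 of 4 for complex II, 2 of 6 for complex III, 4 of 26 for complex IV with 1 higher, and 2 of 6 for complex V with 1 higher. NDUFAF2, a complex I assembly factor that holds the place of NDUFA12 during assembly, was the third complex I call there (log2 -0.73, adjusted p = 0.00145). NUBPL, which delivers iron-sulfur clusters to complex I, fell from 20.9, 18.6 and 20.2 CPM to 13.8, 12.5 and 13 CPM (log2 -0.60, adjusted p = 0.000112). UQCC2, a complex III assembly factor, fell by 0.63 on the log2 scale (adjusted p = 0.000187), and COX20, a chaperone of the COX2 subunit, by 0.48 (adjusted p = 2.52e-05).

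The carriers that supply the ATP synthase with phosphate and ADP include called genes in both clones. SLC25A3, the mitochondrial phosphate carrier, fell from 852, 904 and 890 CPM in control 697 to 577, 565 and 523 CPM in the labelled 697 clone (log2 -0.67, SE 0.0666, edgeR adjusted p = 1.13e-07). SLC25A4, an ADP/ATP carrier, rose in that clone from 16.7, 15.4 and 14.8 CPM to 20.3, 23.3 and 18.4 CPM (log2 0.41, adjusted p = 0.0279). In the labelled KOPN-8 clone SLC25A4 fell from 4.38, 4.08 and 4.08 CPM to 1.01, 1.25 and 1.11 CPM (log2 -1.90, SE 0.197, adjusted p = 5e-08), with every clone library below every control library. The more abundant ADP/ATP carrier SLC25A5 did not pass the test in either clone (log2 -0.08 and 0.12). Of the 6 carriers and channels tested, 2 were higher and 1 lower in the labelled 697 clone, and 3 were lower in the labelled KOPN-8 clone; that is 50% in each, against 9.45% and 28.7% of all genes, in a list of few genes.

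Among enzymes that feed the chain, GPD2, which passes electrons from glycerol 3-phosphate to ubiquinone, fell in the labelled KOPN-8 clone from 81.1, 80 and 78.7 CPM to 40.3, 39.3 and 36.0 CPM (log2 -1.05, SE 0.0738, edgeR adjusted p = 6.35e-11). COQ8A, needed for ubiquinone synthesis, fell there by 0.52 on the log2 scale (adjusted p = 1.21e-05). In all, 2 of the 19 genes of ubiquinone synthesis and electron feeds were higher and 3 lower in that clone (26.3% called, near the 28.7% of all genes), and 1 was higher in the labelled 697 clone, COQ3 (log2 0.62, adjusted p = 0.0246), which is 5.26% of the list against 9.45% of all genes. SUCLG2, a subunit of succinyl-CoA ligase of the tricarboxylic acid cycle, rose in both clones, by log2 0.89 in 697 (adjusted p = 7.76e-07) and 0.29 in KOPN-8 (adjusted p = 0.00612). It was the only call among the 18 cycle genes in the labelled 697 clone and 1 of 4 in the labelled KOPN-8 clone (5.56% and 22.2% of the list), where MDH2 was lower (-0.28, adjusted p = 0.00209). Of 14 regulators of mitochondrial biogenesis tested, 1 was called in each clone (7.14%), both lower: ESRRA in 697 (-0.30, adjusted p = 0.0489) and PPARGC1B in KOPN-8 (-0.66, adjusted p = 0.000347).

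The last comparison is of 1 line against 1 line, and it uses the same control libraries as those above. Between control KOPN-8 and control 697, 53 of the 76 members were called (69.7%), against 73.3% of all genes tested. Higher in KOPN-8 were 12, against 36.6% of all genes, and lower were 41, against 36.7%. The median log2 fold change of the members was -0.27 and that of all genes -0.01. The 2 sets of 3 libraries did not overlap for 63 of the 76, against 76.3% of all genes, and off chromosome 8 50 of 73 were called (68.5%), against 73.1%. Cytosolic ribosomal genes, which are also short and abundant, were lower in KOPN-8 in 79 of 84 (2 higher, median -1.10), and mitochondrial ribosomal genes were lower in 28 and higher in 24 of 77 (median 0.05).

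The counts on either side were as follows for each complex. In complex V 13 of 17 members were called lower and none higher, and all 17 log2 fold changes were below 0, from -0.79 to -0.03; no member was higher at an unadjusted p under 0.05 in edgeR, DESeq2 or limma. In complex IV 8 of 12 were called lower and 1 higher, in complex III 4 of 8 lower and 1 higher, and in complex I 16 of 35 lower and 7 higher. In complex II 3 of 4 were called higher and none lower by edgeR, and 2 of 4 were called higher by DESeq2 and by limma; all 4 were above 0, from 0.14 to 0.27. Of the 6 core members of complex I, 1 was called, and it was higher, while of its 29 accessory members 16 were lower and 6 higher.

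**Figure D5:**
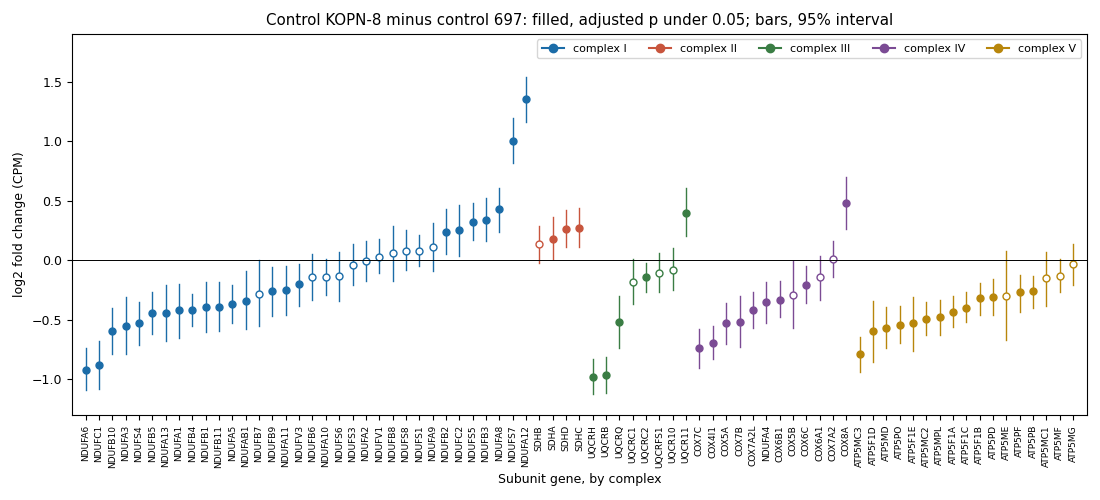
Log2 fold change of control KOPN-8 over control 697 with its 95% interval (vertical axis) for 75 members, ordered by value within each complex (horizontal axis); filled points had an adjusted p under 0.05. All 17 complex V points lie below 0, all 4 complex II points above 0, and NDUFA12 stands highest at 1.35.

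The largest differences upward were both in complex I. NDUFA12, an accessory subunit of the peripheral arm, was at 32.2, 27.7 and 32.4 CPM in control 697 and at 79.8, 82.1 and 73.3 CPM in control KOPN-8. The lines were well apart, by 2.55-fold (log2 1.35, SE 0.0911, edgeR adjusted p = 1.93e-12). NDUFS7, the core subunit that carries the last iron-sulfur cluster before ubiquinone, was at 29.6, 29.9 and 31.8 CPM and at 67.5, 58.8 and 57.0 CPM (log2 1.00, SE 0.0911, adjusted p = 5.33e-10). The others among the 10 highest called were COX8A (0.48), NDUFA8 (0.43), UQCR11 (0.40), NDUFB3 (0.34), NDUFS5 (0.32), SDHC (0.27), SDHD (0.26) and NDUFC2 (0.25), each a log2 fold change; the call on NDUFC2 was lost under 6 of 21 other settings, which were upper-quartile scaling, the filter at a mean of 5 CPM, the replicate block, and leaving out control 697 replicate 2 or control KOPN-8 replicate 1 or 2. Of the exon bases of COX8A 34.5% are shared with another gene on the same strand in GENCODE v29, and among other members named here the share is 19.6% for ATP5PO, 18.5% for NDUFC1, 16.3% for NDUFC2 and 15.4% for ATP5MD.

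Downward, complex III and complex I led. UQCRH, the hinge protein that bridges cytochrome c1 and cytochrome c, was at 237, 233 and 240 CPM in control 697 and at 123, 121 and 118 CPM in control KOPN-8 (log2 -0.98, SE 0.0695, edgeR adjusted p = 5.63e-12). UQCRB was at 377, 384 and 372 CPM and at 203, 194 and 184 CPM (log2 -0.96, SE 0.0717, adjusted p = 1.33e-11). NDUFA6 was lower in KOPN-8 by 0.92 on the log2 scale (SE 0.0831, adjusted p = 5.34e-10); with the controls shared, this is the low control level against which it rose in the labelled KOPN-8 clone. Of the large core subunits of complex III, UQCRC2 was called at -0.14 (adjusted p = 0.0382), a call lost under 8 of 21 other settings, and UQCRC1, at -0.18, did not pass the test (adjusted p = 0.0768). NDUFC1 (-0.88), ATP5MC3 (-0.79), COX7C (-0.74), COX4I1 (-0.69), NDUFB10 (-0.59), ATP5F1D (-0.59) and ATP5MD (-0.57) complete the 10 lowest, each a log2 fold change.

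The promoter of UQCRH is printed as that of the member with the largest fall between the control lines. It lies on the plus strand at chr1:46303448-46303697 (GRCh38.p14), and capitals mark the ETS letters on the opposite strand, which begin 47 bases before the start.

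UQCRH: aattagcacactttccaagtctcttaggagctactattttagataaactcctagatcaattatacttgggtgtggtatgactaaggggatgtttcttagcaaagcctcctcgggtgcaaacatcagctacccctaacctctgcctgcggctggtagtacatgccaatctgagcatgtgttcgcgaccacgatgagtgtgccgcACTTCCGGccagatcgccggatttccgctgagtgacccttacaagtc

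The complex V calls included catalytic, stalk and membrane subunits, and the 4 members that did not pass the test were ATP5MC1, ATP5ME, ATP5MF and ATP5MG. ATP5F1A, the alpha subunit, was at 698, 696 and 702 CPM in control 697 and at 516, 514 and 523 CPM in control KOPN-8 (log2 -0.43, SE 0.0641, edgeR adjusted p = 1.87e-06). ATP5F1B, its catalytic partner, was at 941, 938 and 912 CPM and at 764, 719 and 746 CPM (log2 -0.32, adjusted p = 0.00012). The c-ring genes were unequal: ATP5MC3 was lower by 0.79 on the log2 scale (adjusted p = 6.72e-10) and ATP5MC2 by 0.49 (adjusted p = 8.1e-07), while ATP5MC1 did not pass the test (-0.15, adjusted p = 0.199). ATP5PO, of the peripheral stalk, was at 46.9, 50.3 and 47.6 CPM in control KOPN-8, under every control 697 library (log2 -0.54, adjusted p = 8.53e-07). ATP5IF1, the inhibitor that binds the ATP synthase and is no member, was higher in KOPN-8, at 78.2, 77.8 and 73.7 CPM against 49.4, 54.6 and 48.9 CPM (log2 0.59, adjusted p = 4.69e-07).

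In complex II, SDHC and SDHD, the membrane anchors, were higher in control KOPN-8 by 0.27 and 0.26 on the log2 scale (edgeR adjusted p = 0.00324 and 0.00348). The call on SDHD was lost with the replicate block (adjusted p = 0.157). SDHA, the flavoprotein, was called higher at 0.18 (adjusted p = 0.0497), but that call was lost under 16 of 21 other settings, among them leaving out any 1 library of control 697 or control KOPN-8. Rows of 2 SDHA pseudogenes carried counts and differed between the lines in opposite directions, SDHAP1 at -0.96 and SDHAP3 at 1.63 (log2). Reads of near-identical copies can be split between them, and the value of SDHA itself is uncertain. In complex IV, COX4I1 was at 337, 378 and 339 CPM in control 697 and at 225, 222 and 207 CPM in control KOPN-8, and COX7A2 did not pass the test (log2 0.01, adjusted p = 0.908). The cytochrome c gene CYCS and CYC1 were lower in KOPN-8 too, at -0.56 (adjusted p = 9.87e-06) and -0.70 (adjusted p = 5.2e-08).

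Assembly factors of the 5 complexes were called on both sides, 22 of 61 higher (36.1%, near the 36.6% of all genes) and 17 lower (27.9%, against 36.7%). Complex I assembly factors were higher in KOPN-8 in 6 of 19 and lower in 4, those of complex IV higher in 7 and lower in 8 of 26, and those of complex V higher in 4 and lower in 2 of 6. NDUFAF2 was at 26.9, 25.7 and 23.9 CPM in control 697 and at 8.61, 9.09 and 7.55 CPM in control KOPN-8 (log2 -1.60, SE 0.141, edgeR adjusted p = 3.1e-10). ATPAF1, which helps assemble the catalytic head of the ATP synthase, was at 2.55, 1.75 and 1.81 CPM in control 697 and at 11.4, 12 and 9.73 CPM in control KOPN-8 (log2 2.43, SE 0.188, edgeR adjusted p = 2.86e-11). COX19, a copper-handling factor of complex IV assembly, was at 70.6, 92.1 and 74.9 CPM and at 21.2, 20.6 and 18.9 CPM (log2 -1.97, SE 0.105, adjusted p = 3.17e-14). Of 19 genes of ubiquinone synthesis and electron feeds 10 were higher and 5 lower (78.9% called, against 73.3% of all genes), with PDSS2 (log2 1.94) and COQ2 (1.32), both of ubiquinone synthesis, having the smallest p-values. Of the 6 carriers and channels 1 was higher and 5 lower in KOPN-8, SLC25A3 by -1.52 (adjusted p = 5.31e-16).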

How the data were processed

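RNA was measured in 12 libraries of 4 groups, which were assigned from the sample labels. The submitters' processing notes name Trimmomatic, STAR, DESeq2 and hg19; for versions and gene counting, nothing is stated in those notes or labels. The raw table deposited by the authors holds whole-number counts, 1 row per symbol. The other deposited table is a normalized signal, in which the authors divided the counts of each library by a constant, as its values show; it served for 1 alternative.

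Raw counts were scaled by TMM, filtered with filterByExpr and tested with the robust quasi-likelihood method of edgeR 4.0.16 in R 4.3.3, on all 12 libraries with the group as the only term. Calls are at a Benjamini-Hochberg adjusted p under 0.05 over the 15218 genes left. An SE is the log2 fold change divided by the root of F. The method was tested on simulated data of 15181 genes, where it recovered 74.6% of log2 changes of 0.5 for 697 and 80.6% for KOPN-8. Log2 changes of 1 and 2 were simulated too, and 98.5% to 100% of these were recovered. Of all calls, over every size of change, 6.63% and 5.10% were false. The false share among calls of small changes alone was not measured. Only genes at 5 CPM or more were changed, 67 of them by 0.5 in each line, with noise independent between genes. Far fewer genes were changed than were called in the data, and no shift of many genes in 1 library was simulated. These shares may therefore not carry over to the data.

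Alternatives were DESeq2 1.42.0, limma 3.58.1 on log2(deposited value + 1), other scalings and filters, 2 groups alone, a replicate block, other limits of the member rule, and leaving out each library. Counts of members outside chromosome 8, and the block without replicate 3 of the labelled 697 clone, were added after seeing the data. Same-numbered libraries of control and clone had deviations that correlated across genes at r = 0.158, 0.296 and 0.143 in 697, all over 0.1, so these numbers were taken to pair the libraries. In KOPN-8 the values were 0.0673, 0.0609 and 0.106, not all over 0.1, and the numbers were not taken to pair. Between libraries with different numbers r ran from -0.154 to -0.00212 in 697 and from -0.07 to 0.00911 in KOPN-8. Every same-numbered value lay above all others of its line, so the check does not show that the KOPN-8 libraries are unpaired. Replicates differed by more than sampling noise (chi-square per degree of freedom 2.91 to 10.7). Totals of 10378769 to 18278662 counts put the limit that a count of 0 allows (3 counts) at 0.159 to 0.292 CPM, which covers counting error only.

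Members and lists were chosen with earlier results of these data known. The text names every member called in a clone, the 6 smallest p-values of the difference between clones, the 10 highest and 10 lowest called between control lines, all members on chromosome 8, paralog sets, the extremes per kilobase, and up to 2 called genes per list. 1 member that the rule would name is not reported here; it stays in all counts, sums and medians. Named outside that rule, after their values were seen, were NDUFS7, NDUFV3, ATP5F1A, ATP5F1B, ATP5F1D and ATP5F1E, UQCRC1, UQCRC2, SDHA, SLC25A4 and SLC25A5, CYCS, NRF1, GABPA, YY1, and NDUFAF2 and ATPAF1 in part. Transcript lengths and positions are from GENCODE v29 (GRCh38) and promoters from RefSeq (GRCh38.p14); no hg19 coordinate is given.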

Additional observations from a re-analysis of the deposited data

Results flagged for a closer look

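For 10 members, of which 9 are given here, the change in the labelled KOPN-8 clone differed from that in the labelled 697 clone by a test of the difference itself (interaction term, edgeR, adjusted over all genes tested). Values are KOPN-8 minus 697 on the log2 scale. NDUFA8 (-1.15) and NDUFA6 (0.76) were called in both clones, with opposite signs. COX6C (-0.72), UQCRB (-0.59) and NDUFB9 (-0.51), all on chromosome 8 before ASAP1, were lower in the labelled KOPN-8 clone and not called in 697. NDUFB2 (0.63) was called lower in the labelled 697 clone and not called in KOPN-8, and NDUFS4 (-0.49) was called lower in the labelled KOPN-8 clone, with a 697 value of 0.19 that was not called. ATP5PO (-0.35) was called higher in the labelled 697 clone.

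The difference for SDHA (-0.37) was called although neither clone's own change was called in the same fit without the block. Those changes were 0.16 in 697 and -0.21 in KOPN-8. The call on the difference for SDHA was lost under 7 of 20 other settings. The difference for ATP5PO was lost under 5 of 20, and that for NDUFB9 under 1, without replicate 2 of the labelled 697 clone (adjusted p = 0.0516).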

How the results depend on the processing

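No called member changed direction under any alternative that was run; the median of the members in the labelled 697 clone moved from -0.05 to 0.03 without its replicate 3, and that in the labelled KOPN-8 clone from -0.04 to -0.004 without its own replicate 3. Of the called members, NDUFA8, NDUFB2 and ATP5PO in the labelled 697 clone, and COX6C, UQCRB, NDUFB9, NDUFA6 and NDUFA8 in the labelled KOPN-8 clone, stayed called under every alternative. NDUFA6 in 697 was lost under 11 of 22, UQCR11 under 9 of 22, SDHB in KOPN-8 under 14 of 21, NDUFS4 under 4 and NDUFV1 under 2 of 21. Members called in the labelled 697 clone numbered 5, against 9 with the replicate block, 3 when the 2 groups were fitted alone and 3 to 6 when 1 library was left out. Those in the labelled KOPN-8 clone numbered 9, against 18 with the replicate block, 17 when the 2 groups were fitted alone and 6 to 11 when 1 library was left out. The count for the difference between clones was 10, against 17 with the replicate block. The block changed no other count by over 1.5 times; between the control lines it gave 46 against 53. With the block, all genes called rose from 1438 to 2319 in the labelled 697 clone and from 4370 to 5348 in the labelled KOPN-8 clone. They rose for the difference between clones too. With the 2 groups fitted alone, more of all genes were called in KOPN-8 and fewer in 697. In these fits the member counts thus moved in the same direction as the counts over all genes.

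Other scalings, filters, DESeq2 and limma gave 4 or 5 called members in 697, 8 to 13 in KOPN-8 and 51 to 61 between control lines. With upper-quartile scaling the median of all genes between control lines was -0.10, that of the members -0.36, and 9 members were higher and 52 lower. The causes of these moves were not tested.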

Other observations

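The ribosomes, whose genes are short and abundant like the subunit genes, can be set beside them in the clones. In the labelled 697 clone 6 of 77 mitochondrial ribosomal genes were called higher and 3 lower (11.7% called, against 9.45% of all genes tested; median log2 fold change 0.02), with MRPL16 at 1.04 the one with the smallest p. In the labelled KOPN-8 clone 11 were called, all lower (14.3%, against 28.7% of all genes called and 17.2% called lower; median -0.07), led by MRPL13 (-0.75) and MRPL15 (-0.54). Both of these lie on chromosome 8, at bases 120380761 and 54135210 (GRCh38). Of 84 cytosolic ribosomal genes, 8 were lower in that clone (9.52%, against 17.2% of all genes; median -0.07), led by RPL7 (-0.72) and RPL30 (-0.63).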
